A study of Mus musculus with 18 samples.

Results

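Granzymes, perforin and Fas ligand are the molecules with which cytotoxic lymphocytes kill, and their transcripts were followed here in immune cells sorted from mouse livers that carried tumours. The 10 genes described are Gzma, Gzmb, Gzmc, Gzmk, Gzmm, Prf1, Nkg7, Fasl, Ctsw and Srgn. They were taken by symbol from a table of 48440 gene identifiers, and all 10 were found. Tumours had been raised in wild-type C57BL/6J mice by hydrodynamic tail vein injection of Ras and Myc oncogenes, and 18 RNA-seq libraries of CD45+ liver cells fall into 6 groups of 3.

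Treated mice carry the label poly(I:C) plus anti-PD-L1, a synthetic double-stranded RNA that is sensed as viral RNA together with an antibody against the ligand of the PD-1 checkpoint receptor. From them came CD3+CD8+, CD3+CD8- and CD3-CD8- cells. The same 3 fractions were sorted from untreated mice with the same tumours. The labels give the doses as 200 µg of anti-PD-L1 and 4 mg/kg of poly(I:C) by intraperitoneal injection every other day for 6 doses. The dosing note also names an antibody against VEGF-A, which the treatment label of these mice does not. All mice were bought at 7 weeks of age and given 1 week to adapt, and their age at sorting is not stated. No group without tumours was analysed, so every value is from a tumour-bearing liver. The labels do not say whether cells of several mice were pooled for a library or which cells of the liver took up the oncogenes.

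Perforin, the product of Prf1, inserts into the membrane of a target cell and lets granzymes enter it. Granzymes are serine proteases: granzyme B (Gzmb) cleaves caspases and Bid after aspartate and starts apoptosis, whereas granzyme A (Gzma) and granzyme K (Gzmk) cut after basic residues. Granzyme C (Gzmc) lies in the granzyme B gene cluster of the mouse, and granzyme M (Gzmm) is best known from natural killer (NK) cells. Fas ligand (Fasl) kills by a separate route, through the death receptor Fas on the target. Serglycin (Srgn) is the proteoglycan on which granzymes and perforin are packed in the secretory granule, Nkg7 is a granule membrane protein needed for full exocytosis, and cathepsin W (Ctsw) is a cysteine protease of cytotoxic lymphocytes. In the liver these transcripts are known mainly from CD8 T cells, NK cells and other innate-like lymphocytes.

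Gzma and Gzmk are neighbours on chromosome 13, with 70.6 kb between them, and Gzmb and Gzmc are neighbours on chromosome 14, 17.2 kb apart. All 4 are read from the minus strand. RefSeq promoter windows on build GRCm38.p6, which run from 250 bases before to 50 bases after a transcription start, were matched by symbol for 9 of the 10 genes (11 windows, with a pair each for Gzmm and Srgn), while Ctsw is named only. The 250 bases before the start are shown for both neighbouring pairs, because Gzma, Gzmb and Gzmk rose with treatment in CD3-CD8- cells and Gzmc did not pass the test there, and for Prf1 and Fasl, the genes of the pore and of the second route of killing. Capitals mark matches, on either strand, to 4 motifs: RUNX (TGTGGT), T-box (GGTGTGA), AP-1 (TGANTCA) and IRF (GAAANNGAA).
Gzma, chr13:113100982-113101231, minus strand: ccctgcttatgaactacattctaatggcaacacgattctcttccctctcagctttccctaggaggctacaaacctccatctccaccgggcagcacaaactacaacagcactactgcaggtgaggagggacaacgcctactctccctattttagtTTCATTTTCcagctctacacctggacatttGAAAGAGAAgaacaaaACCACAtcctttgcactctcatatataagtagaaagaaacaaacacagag
Gzmk, chr13:113180966-113181215, minus strand: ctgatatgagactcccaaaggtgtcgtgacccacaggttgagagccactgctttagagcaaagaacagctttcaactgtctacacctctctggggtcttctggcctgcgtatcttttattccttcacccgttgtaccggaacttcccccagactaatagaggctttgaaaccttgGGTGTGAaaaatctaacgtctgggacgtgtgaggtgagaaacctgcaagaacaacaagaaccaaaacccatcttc
Gzmb, chr14:56262335-56262584, minus strand: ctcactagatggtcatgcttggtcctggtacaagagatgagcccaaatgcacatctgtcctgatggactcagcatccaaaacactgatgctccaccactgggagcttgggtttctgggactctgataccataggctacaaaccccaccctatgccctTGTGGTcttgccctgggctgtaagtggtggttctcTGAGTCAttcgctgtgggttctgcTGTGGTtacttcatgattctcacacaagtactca
Gzmc, chr14:56234658-56234907, minus strand: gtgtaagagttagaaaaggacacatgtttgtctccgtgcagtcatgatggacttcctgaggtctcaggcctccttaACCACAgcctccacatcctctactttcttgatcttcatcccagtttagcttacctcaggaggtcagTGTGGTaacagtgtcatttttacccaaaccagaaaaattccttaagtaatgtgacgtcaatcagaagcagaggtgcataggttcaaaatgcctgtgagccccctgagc
Prf1, chr10:61297586-61297835, plus strand: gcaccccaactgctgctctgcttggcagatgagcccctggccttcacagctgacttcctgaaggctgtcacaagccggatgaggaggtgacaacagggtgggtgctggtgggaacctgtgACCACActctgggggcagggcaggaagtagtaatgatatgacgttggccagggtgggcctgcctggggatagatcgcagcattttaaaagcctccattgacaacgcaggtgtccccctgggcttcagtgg
Fasl, chr1:161788496-161788745, minus strand: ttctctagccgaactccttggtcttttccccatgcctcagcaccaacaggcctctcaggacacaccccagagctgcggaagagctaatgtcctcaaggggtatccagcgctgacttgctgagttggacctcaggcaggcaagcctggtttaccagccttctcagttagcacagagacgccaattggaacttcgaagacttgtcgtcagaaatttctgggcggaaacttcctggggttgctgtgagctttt
The RUNX letters occur in 7 of the 11 windows, against 16.8% of all 32851 promoter windows of the same length. They stand in the windows of Gzma, Gzmb, Gzmc and Prf1 shown here, with a pair of matches each in Gzmb and Gzmc. The T-box letters occur in 3 of the 11 windows, Gzmk among them, against 4.0% of all windows. The IRF letters occur in 2 windows (8.6% of all), with a pair of matches in Gzma and 1 in Srgn. The AP-1 letters occur in 1 window, that of Gzmb (7.8% of all). No 2 matches overlap. The Fasl window holds none of these letters. A match is a string of letters and no measured binding.

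The libraries held 1829155 to 28233682 counts each. In 3 of them ribosomal RNA loci took 79.7% to 87.0% of the counts (untreated CD3+CD8+ replicates 1 and 18, treated CD3+CD8- replicate 2), against 0.349% to 2.26% in the other 15. Levels are CPM, counts scaled to a common library total, after TMM scaling, which sets libraries to a common middle of their genes. Numbers of replicates come from a code in the library names that may stand for the animal. The labels do not say so, and p-values therefore measure the spread between these libraries. Values per library follow the order of replicates 2, 11 and 19 in treated groups and 1, 5 and 18 in untreated groups (5, 6 and 18 in untreated CD3+CD8- cells).

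The sorted fractions were checked against the transcripts of their sort markers. Cd8a ran at 1382, 1089 and 1270 CPM in treated and 657, 969.9 and 282 CPM in untreated CD3+CD8+ cells. Among CD3+CD8- cells it ran at 23.6, 12.7 and 7.705 CPM in treated and 4.645, 641 and 6.82 CPM in untreated mice. Untreated CD3+CD8- replicate 6, with 641 CPM of Cd8a, goes against its label. The CD3-CD8- libraries were not free of T-cell transcripts: Cd8a stood at 985, 549 and 813 CPM in treated and 181, 288 and 60.8 CPM in untreated mice. The 3 CD3 chains (Cd3e, Cd3d and Cd3g, mean log2 CPM) were at 9.16 ± 0.30 in treated and 7.33 ± 0.76 in untreated CD3-CD8- cells (SD, n = 3 each), the treated libraries lying near the 9.29 ± 0.18 of treated CD3+CD8+ cells. The CD3-CD8- cells are therefore named by their sort label alone. Neutrophil markers summed to 11240 to 31740 CPM in treated and 3410 to 15580 CPM in untreated CD3+CD8- cells. In bulk RNA, more cells of a type and more RNA per cell cannot be told apart.

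Treatment went with more RNA of 3 granzymes and of Fas ligand in CD3-CD8- cells. Gzma was 3.42-fold, Gzmb 3.24-fold, Gzmk 8.53-fold and Fasl 3.72-fold higher in treated than in untreated mice. All 4 passed the test, as did 25.6% of the 13781 genes tested. Gzmm fell 2.31-fold. Prf1, Nkg7, Ctsw, Srgn and Gzmc did not pass. In CD3+CD8+ cells the fitted values of Gzma, Gzmb, Gzmk and Fasl were of similar size, 2.87-fold to 4.59-fold, yet no gene in the table passed edgeR's test there. Among CD3+CD8- cells no gene in the table passed edgeR's test either, and the values of the 10 genes fell on both sides of 0.

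**Figure D1:**
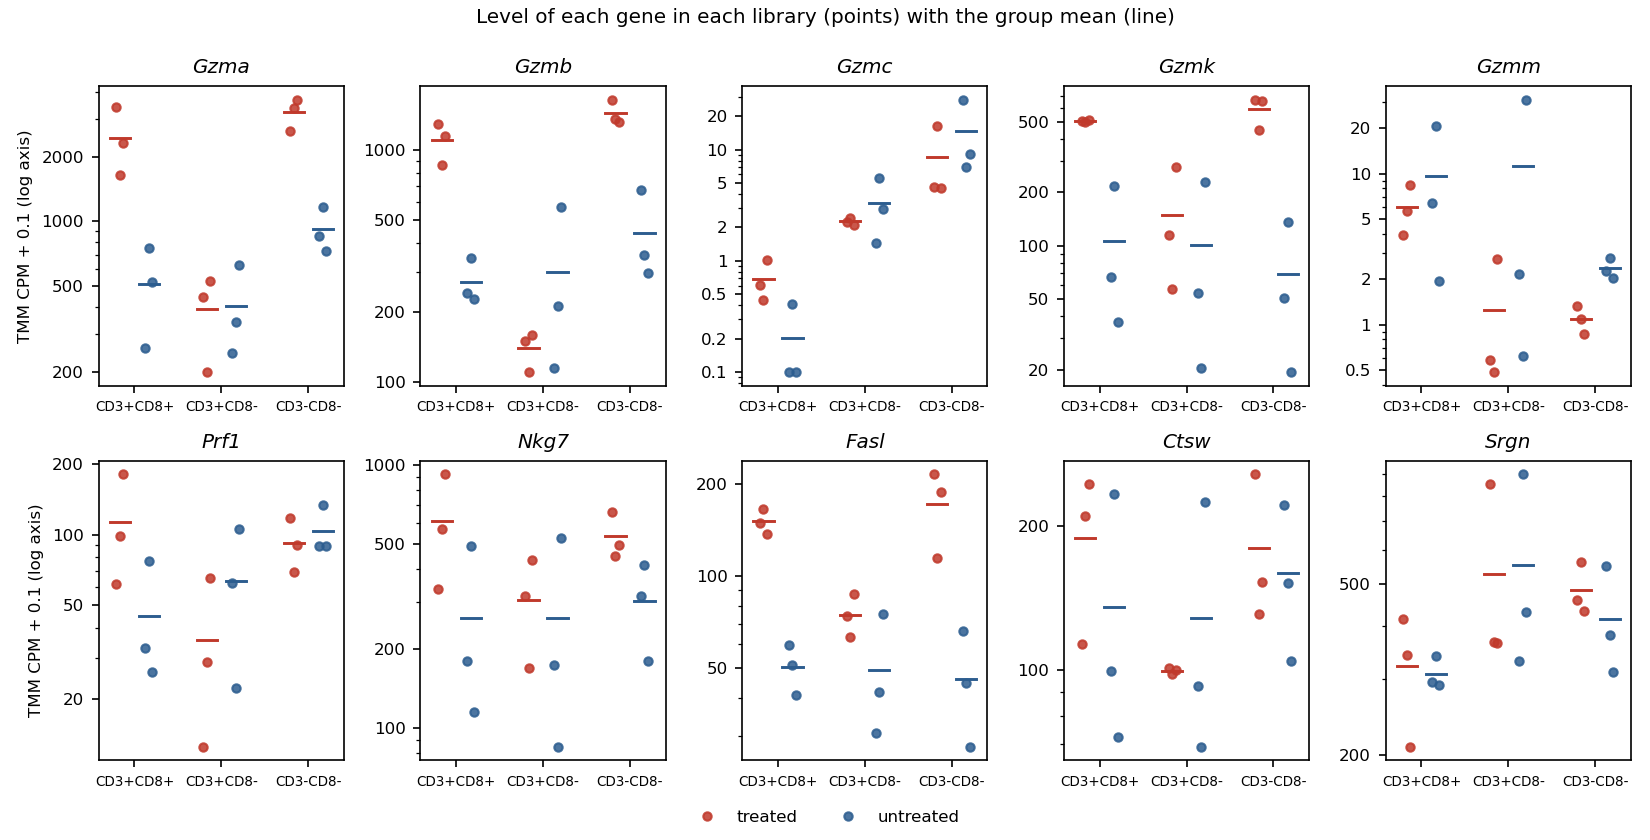
TMM CPM plus 0.1 (log axis) of each of the 10 genes in each of the 18 libraries. Points are libraries and lines are group means, with treated groups left of untreated groups in each fraction; treated points of Gzma, Gzmb, Gzmk and Fasl lie above the untreated ones in CD3+CD8+ and CD3-CD8- cells and mix with them in CD3+CD8- cells.

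A gene was called at an adjusted p below 0.05 in edgeR's quasi-likelihood F-test with Benjamini-Hochberg adjustment over all genes tested. In CD3-CD8- cells 5 of the 10 genes were called, beside 25.6% of the 13781 genes tested. For CD3+CD8+ cells 0 of 9 were called, beside 0% of 10654 genes, and 624 of those genes had an unadjusted p under 0.05. DESeq2 called 99 genes there, of which 4 were Gzma, Gzmb, Gzmk and Fasl, and limma voom called 197, of which 5 were of the 10. For CD3+CD8- cells 0 of 10 were called, beside 0% of 11197 genes, with 198 at an unadjusted p under 0.05, and DESeq2 called 2 genes and limma voom 0, none of them of the 10. The median log2 fold change of the 10 genes in CD3-CD8- cells was 0.50, against -0.06 over all genes. It was 1.22 against -0.03 in CD3+CD8+ cells and -0.23 against -0.02 in CD3+CD8- cells.

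Granzyme A, by FPKM, was the most abundant granzyme transcript in every group. In CD3-CD8- cells Gzma stood at 2632, 3367 and 3675 CPM in treated mice, against 859, 1173 and 732 CPM in untreated mice. The lowest treated library was above the highest untreated one, and the log2 fold change was 1.77 (SE 0.26, edgeR adjusted p = 0.00909). Sequencing lanes 2 and 3 were spread over both treatments: within lane 2 the difference of mean log2 CPM was 1.91 (2 treated, 2 untreated libraries), and within lane 3 it was 1.65 (1 of each). All values within lanes given below are such differences of means, with no model fitted. Gzma was called in 18 of 20 alternative analyses (log2 fold change 1.45 to 1.97, adjusted p 1.29e-10 to 0.084), and lost the call where all 18 libraries shared 1 fit and where FPKM replaced counts.

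Gzma in CD3+CD8+ cells stood at 1641, 3380 and 2305 CPM in treated mice, against 259.6, 752 and 522 CPM in untreated mice. The groups did not overlap, and the log2 fold change of 2.2 (SE 0.54) had an edgeR adjusted p of 0.391. It was 1.65 within lane 2, 2.65 within lane 3 and 1.70 without the ribosomal-RNA-rich libraries. Replicate 5 is the only untreated library in lane 2 and the only one left without the rich libraries. Gzma in CD3+CD8- cells stood at 200.1, 445 and 531 CPM in treated and 246, 625 and 341 CPM in untreated mice. These overlapped over nearly their whole range, with a log2 fold change of -0.06 (SE 0.49, edgeR adjusted p = 1), and of 0.43 without untreated replicate 6. Their lanes differed in sign, 0.62 in lane 2 and -0.94 in lane 3.

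Granzyme B, the caspase-cleaving granzyme, showed the same order of fractions as granzyme A by group means of treated mice. In CD3-CD8- cells Gzmb stood at 1654, 1363 and 1323 CPM in treated mice, against 674, 352 and 294 CPM in untreated mice, with no overlap. The log2 fold change was 1.70 (SE 0.32, edgeR adjusted p = 0.013), 1.75 within lane 2 and 1.91 within lane 3. It held in 16 of 20 alternatives (log2 fold change 1.50 to 2.10, adjusted p 6.08e-07 to 0.0924), not without untreated replicate 5 (1.54, adjusted p = 0.0733), without treated replicate 2 (1.57, adjusted p = 0.0534), with FPKM (1.74, adjusted p = 0.073) or in 1 fit of all 18 libraries (1.72, adjusted p = 0.0924).

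Gzmb in CD3+CD8+ cells stood at 867, 1295 and 1149 CPM in treated mice, against 243, 343 and 228 CPM in untreated mice. Every treated library was above every untreated one by at least 2-fold, with a log2 fold change of 1.97 (SE 0.38, edgeR adjusted p = 0.273). It was 1.63 within lane 2, 2.28 within lane 3, 1.69 without the ribosomal-RNA-rich libraries, and 2.19 without untreated replicate 5 (edgeR adjusted p = 0.0198). Replicate 5 is the only untreated CD3+CD8+ library not rich in ribosomal RNA. Lane 2 and the fit without the rich libraries rest on it alone, and the last fit rests on the rich replicates 1 and 18. The order of means turned in CD3+CD8- cells: 110.5, 151 and 160.4 CPM in treated, against 115, 571 and 212 CPM in untreated mice, a log2 fold change of -1.11 (SE 0.54, edgeR adjusted p = 1). The highest of these values belongs to untreated replicate 6, the library with CD8 transcripts, and without it the log2 fold change was -0.20 (edgeR adjusted p = 1).

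Granzyme K, a tryptase-like granzyme, had the largest fold change of the 10 genes in CD3-CD8- cells. Gzmk stood at 667, 448 and 656 CPM in treated mice, against 50.8, 136 and 19.3 CPM in untreated mice, with no overlap. The log2 fold change was 3.09 (SE 0.63, edgeR adjusted p = 0.0152). Within lane 2 the difference was 4.12 and within lane 3 it was 2.27. The call held in 15 of 20 alternatives (log2 fold change 2.66 to 4.03, adjusted p 2.11e-24 to 0.104). It was lost after correction for GC content (2.89, adjusted p = 0.0543), without untreated replicate 1 (2.85, adjusted p = 0.0547) and without treated replicate 2 (2.95, adjusted p = 0.0578), besides with FPKM (adjusted p = 0.0616) and in 1 fit of all 18 libraries (adjusted p = 0.104).

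The treated CD3+CD8+ libraries had almost one and the same level of Gzmk, 498, 507 and 512 CPM, against 66.8, 217 and 37.1 CPM in untreated mice. The untreated libraries were spread over a wide range, none reaching the treated ones, and the log2 fold change was 2.15 (SE 0.56, edgeR adjusted p = 0.454). It was 1.21 within lane 2, 3.36 within lane 3, 1.22 without the ribosomal-RNA-rich libraries and 3.23 without untreated replicate 5 (edgeR adjusted p = 0.00157). The last fit had only ribosomal-RNA-rich untreated libraries, and replicate 5 was the only untreated library in lane 2 and without the rich ones. Gzmk in CD3+CD8- cells stood at 56.8, 115 and 278 CPM in treated and 54.15, 229.7 and 20.5 CPM in untreated mice, overlapping, with a log2 fold change of 0.55 (SE 0.82, edgeR adjusted p = 1), and of 2.0 without untreated replicate 6. The Gzmk locus overlaps Esm1 on the opposite strand, whose highest count was 296 against 21506 for Gzmk, and strandedness of the counting is not stated.

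Gzmm and Gzmc were scarce. Gzmm had 1 to 225 counts per library, and in CD3-CD8- cells it stood at 1.24, 0.993 and 0.763 CPM in treated mice, against 2.18, 2.65 and 1.93 CPM in untreated mice. The groups did not overlap, and Gzmm fell by 1.21 on the log2 scale (SE 0.34, edgeR adjusted p = 0.0395). The call was lost in 12 of 19 alternatives (log2 fold change -1.56 to -0.52, adjusted p 0.00293 to 0.49), among them each of the 6 fits that left out 1 library (-1.48 to -0.997) and the GC correction, which gave -0.52. Gzmm in CD3+CD8+ cells had 5.54, 3.84 and 8.31 CPM in treated and 6.30, 20.6 and 1.86 CPM in untreated mice. Its level in CD3+CD8- cells was 0.386, 0.480 and 2.60 CPM in treated and 2.08, 30.8 and 0.525 CPM in untreated mice. Both pairs of groups overlapped, and the single high value of 30.8 CPM is that of untreated CD3+CD8- replicate 6. The log2 fold change in CD3+CD8- cells was -2.89 (SE 1.28, edgeR adjusted p = 1) with that library and -0.02 without it.

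Gzmc, the neighbour of Gzmb, was not called for treatment in any fraction. It stood at 4.55, 16.3 and 4.46 CPM in treated and 28.2, 6.85 and 9.09 CPM in untreated CD3-CD8- cells, overlapping, with a log2 fold change of -0.93 (SE 0.67, edgeR adjusted p = 0.334). The CD3+CD8- libraries had 2.32, 2.16 and 2.02 CPM in treated and 1.345, 2.84 and 5.51 CPM in untreated mice. It was close to absent in CD3+CD8+ cells, with 0.346, 0.501 and 0.923 CPM in treated and 0, 0.313 and 0 CPM in untreated mice, and was not tested for treatment there. The 0 counts of untreated CD3+CD8+ replicates 1 and 18 allow up to 3.78 and 5.57 CPM, 3 counts of each library's scaled total, which covers counting error only. Of the other 5 granzymes of the cluster (Gzmd, Gzme, Gzmf, Gzmg and Gzmn) no gene had enough counts to be tested in any comparison. These genes resemble Gzmc in sequence, and how reads that match several of them were counted is not stated.

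Perforin, which granzymes need to enter a target, did not pass the test in CD3-CD8- cells. Prf1 stood at 117, 69.1 and 90.4 CPM in treated mice, against 89.3, 133 and 89.5 CPM in untreated mice. The groups overlapped, and the log2 fold change was -0.19 (SE 0.25, edgeR adjusted p = 0.595), between -0.43 and 0.22 in 20 alternatives. Prf1 in CD3+CD8+ cells had 98.7, 61.6 and 180.1 CPM in treated and 32.8, 76.9 and 26.0 CPM in untreated mice, with overlap, a log2 fold change of 1.22 (SE 0.50) and an edgeR adjusted p of 0.758. That difference was 0.02 within lane 2 and 2.62 within lane 3, where both untreated libraries were rich in ribosomal RNA, and it was 0.58 without the ribosomal-RNA-rich libraries. The CD3+CD8- libraries held 28.6, 12.5 and 65.5 CPM in treated and 62.5, 105 and 22.3 CPM in untreated mice, a log2 fold change of -0.82 (SE 0.66, edgeR adjusted p = 1), and of -0.24 without untreated replicate 6.

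Fas ligand, the trigger of the death receptor route, rose as well in CD3-CD8- cells. Fasl stood at 215, 114 and 188 CPM in treated mice, against 66.0, 44.7 and 27.6 CPM in untreated mice. The groups did not overlap, and the log2 fold change was 1.89 (SE 0.35, edgeR adjusted p = 0.0123), 1.87 within lane 2 and 2.07 within lane 3. It was called in 17 of 20 alternatives (log2 fold change 1.59 to 2.19, adjusted p 2.45e-13 to 0.083), not without untreated replicate 5 (1.84, adjusted p = 0.0657), without treated replicate 2 (1.67, adjusted p = 0.0519) or with FPKM (1.82, adjusted p = 0.083).

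Fasl in CD3+CD8+ cells stood at 166, 149 and 137 CPM in treated mice, against 59.2, 51.0 and 40.8 CPM in untreated mice. The lowest treated library had more than 2 times the level of the highest untreated one. The log2 fold change was 1.52 (SE 0.27, edgeR adjusted p = 0.273), 1.56 without the ribosomal-RNA-rich libraries, 1.62 within lane 2 and 1.48 within lane 3. Without untreated replicate 5 it was 1.53 (edgeR adjusted p = 0.0415), which passed. That fit had only ribosomal-RNA-rich untreated libraries, and replicate 5 was the only untreated library in lane 2 and without the rich ones. Fasl in CD3+CD8- cells had 63.0, 73.9 and 87.4 CPM in treated and 30.6, 75.3 and 41.7 CPM in untreated mice, with 1 untreated library, replicate 6, inside the treated range. The log2 fold change there was 0.60 (SE 0.37, edgeR adjusted p = 1), and 1.06 without replicate 6.

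By edgeR, the granule genes Nkg7, Ctsw and Srgn were called in no fraction. Within CD3-CD8- cells Nkg7 stood at 662, 449 and 495 CPM in treated mice, against 316, 417 and 179 CPM in untreated mice. These groups did not overlap, by a narrow gap, and the log2 fold change was 0.80 (SE 0.31, edgeR adjusted p = 0.0922). DESeq2 called it, at 0.84 (adjusted p = 0.0156). Nkg7 in CD3+CD8+ cells had 570, 337 and 919 CPM in treated and 179, 492 and 115 CPM in untreated mice, which overlapped, with a log2 fold change of 1.17 (SE 0.57, edgeR adjusted p = 0.943). Limma voom called it there, at 1.58 (adjusted p = 0.0307). The difference of mean log2 CPM was -0.17 within lane 2 and 2.68 within lane 3. The edgeR value was 0.32 without the ribosomal-RNA-rich libraries, where replicate 5 was the only untreated library, as in lane 2. The CD3+CD8- libraries stood at 169, 316 and 434.5 CPM in treated and 173, 524 and 84.75 CPM in untreated mice, again overlapping, with a log2 fold change of 0.21 (SE 0.64, edgeR adjusted p = 1), and of 1.24 without untreated replicate 6.

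Serglycin, the packing proteoglycan, varied least of the 10 transcripts over the 18 libraries, with a root mean square distance of 0.51 log2 CPM from its own mean. Srgn stood at 342, 415 and 209 CPM in treated and 295, 339.9 and 291 CPM in untreated CD3+CD8+ cells, a log2 fold change of -0.01 (SE 0.33, edgeR adjusted p = 0.999). The CD3-CD8- libraries had 459.7, 562 and 433 CPM in treated and 549.6, 380.2 and 313 CPM in untreated mice, a log2 fold change of 0.20 (SE 0.22, edgeR adjusted p = 0.543). All 3 fractions overlapped between treated and untreated mice. Ctsw stood at 257, 131 and 153 CPM in treated and 222, 152 and 105 CPM in untreated mice among CD3-CD8- cells, mixed in order. It had log2 fold changes of 0.17 (SE 0.34, edgeR adjusted p = 0.743) in CD3-CD8- cells, 0.41 (SE 0.46, edgeR adjusted p = 0.999) in CD3+CD8+ cells and -0.39 (SE 0.43, edgeR adjusted p = 1) in CD3+CD8- cells. Its levels ran between 69 and 256.8 CPM over the 18 libraries, and the gene meets Fibp on the opposite strand, whose highest count was 858 against 6625 for Ctsw.

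**Figure D2:**
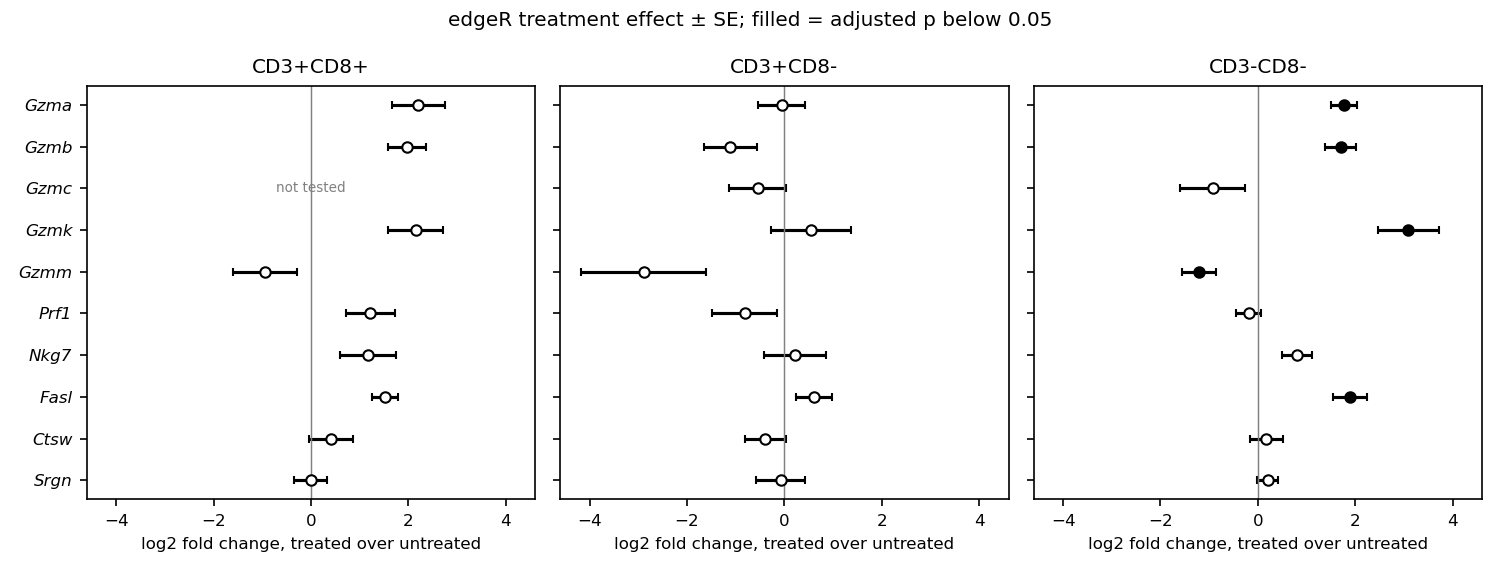
Log2 fold change of treated over untreated libraries for each gene in the 3 fractions, with its standard error, from the edgeR fit. Filled points passed an adjusted p below 0.05; these are Gzma, Gzmb, Gzmk and Fasl above 0 and Gzmm below 0, all in CD3-CD8- cells.

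Marker transcripts of several cell types were called in CD3-CD8- cells, beside 25.6% of all genes. Of 8 T-cell markers 6 rose and none fell, and their summed level was 3328 to 4850 CPM in treated, against 672.5 to 1667 CPM in untreated mice. Both CD8 markers rose, to a sum of 767.1 to 1420 CPM in treated, against 100.7 to 463.1 CPM in untreated mice. Of 8 NK markers 1 fell (Klrb1c, log2 fold change -1.31, SE 0.36, edgeR adjusted p = 0.0347) and none rose, with sums of 311.1 to 829.5 CPM in treated and 661.9 to 1076 CPM in untreated mice. Of 11 B-cell markers 9 fell, with sums of 2717 to 3802 CPM in treated and 4433 to 6855 CPM in untreated mice, and of 10 neutrophil markers 3 rose, with sums of 587.9 to 20180 CPM in treated and 179.1 to 916.3 CPM in untreated mice. Of 11 macrophage markers 5 fell, with sums of 897 to 2934 CPM in treated and 1220 to 2644 CPM in untreated mice. Of 4 erythroid markers 2 fell, with sums of 499.1 to 1249 CPM in treated and 812.6 to 2400 CPM in untreated mice, and of 7 mast cell and basophil markers 1 fell, with sums of 4.631 to 66.76 CPM in treated and 45.37 to 232.6 CPM in untreated mice. After GC correction 526 of the 13781 genes tested were called. The called markers were then 4 of T cells, 2 of B cells and 1 of macrophages, and none of the CD8, NK, neutrophil, erythroid and mast cell lists. No marker of these lists was at 0 in all 3 libraries of either group. Among CD3+CD8+ cells none of these lists had a called gene, beside 0% of all 10654 genes tested there. CD8 sums were 1525 to 2269 CPM in treated and 475.2 to 1930 CPM in untreated CD3+CD8+ cells. NK sums were 44.02 to 147 CPM in treated and 138.2 to 586.6 CPM in untreated mice. B-cell sums were 164.1 to 225.2 CPM in treated and 415.7 to 2990 CPM in untreated mice. The part of these transcripts in the values of the granzymes and Fasl was not tested.

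Next, each gene was set against the CD3 chains of the same library in CD3-CD8- cells. The log2 ratio of Gzma to the CD3 chains averaged 2.48 ± 0.52 in treated and 2.49 ± 0.59 in untreated mice (SD, n = 3 each). For Gzmb it averaged 1.33 ± 0.16 in treated and 1.35 ± 0.50 in untreated mice, and for Fasl -1.78 ± 0.26 in treated and -1.89 ± 0.26 in untreated mice. The groups of all 3 overlapped, so Gzma, Gzmb and Fasl were higher in treated mice by about as much as the CD3 chains were. Gzmk exceeded them, at 0.02 ± 0.21 in treated, against -1.65 ± 0.93 in untreated mice, with no overlap.

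Prf1, Ctsw, Srgn, Nkg7 and Gzmm had lower ratios to the CD3 chains in treated mice, each without overlap between the groups. The chains were themselves higher in treated mice, and of these genes edgeR called only Gzmm for treatment. Prf1 had a log2 ratio of -2.66 ± 0.11 in treated, against -0.66 ± 0.71 in untreated mice, Ctsw one of -1.73 ± 0.22 in treated, against -0.08 ± 0.34 in untreated mice. For Srgn it was -0.25 ± 0.44 in treated and 1.32 ± 0.47 in untreated mice. For Nkg7 it was -0.11 ± 0.03 in treated and 0.83 ± 0.35 in untreated mice. The log2 ratio of Prf1 to Gzmb, the pore to the protease, was -4.00 ± 0.26 in treated, against -2.01 ± 0.80 in untreated CD3-CD8- cells. The log2 ratio of Fasl to Prf1 was 0.89 ± 0.16 in treated, against -1.23 ± 0.69 in untreated cells, and neither pair of groups overlapped. These ratios were not tested, and with 3 libraries against 3 the smallest two-sided exact permutation p is 0.1. Ratios to the CD3 chains depend on that choice of anchor. The NK genes Ncr1, Klrb1c and Klre1 averaged lower in treated CD3-CD8- cells, at 87.4, 109 and 79.9 CPM. In untreated CD3-CD8- cells they averaged 153, 260 and 101 CPM.

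Among CD3+CD8+ cells the CD3 chains were themselves higher in treated mice, at 9.29 ± 0.18 in treated, against 8.31 ± 0.76 mean log2 CPM in untreated mice, with no overlap. The log2 ratio to them was -0.31 ± 0.20 in treated and -1.96 ± 0.62 in untreated mice for Gzmk, and -2.06 ± 0.04 in treated and -2.67 ± 0.61 in untreated mice for Fasl, both without overlap. For Gzma it was 1.90 ± 0.62 in treated and 0.56 ± 0.96 in untreated mice, and for Gzmb 0.80 ± 0.43 in treated and -0.25 ± 0.51 in untreated mice, both overlapping. The log2 ratio of Gzmb to its carrier Srgn was 1.81 ± 0.58 in treated, against -0.21 ± 0.19 in untreated mice, with no overlap.

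**Figure D3:**
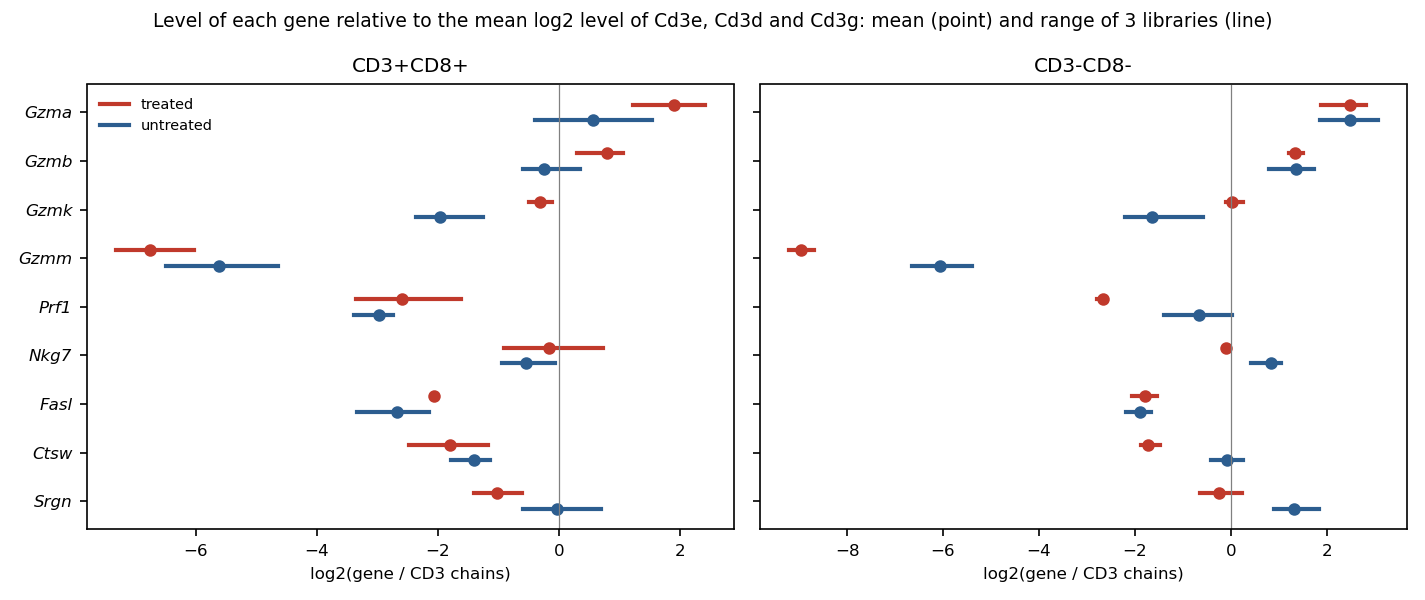
Log2 ratio of each gene to the mean of Cd3e, Cd3d and Cd3g in CD3+CD8+ and CD3-CD8- cells; points are means and lines the range of 3 libraries, treated above untreated, and heights of different genes are not comparable because transcript lengths differ. Gzmc is left out for its low counts. In CD3-CD8- cells Gzma, Gzmb and Fasl have overlapping ratios, Gzmk is higher in treated mice and Prf1, Nkg7, Ctsw, Srgn and Gzmm are lower.

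The blend of granzymes was compared on the deposited FPKM, which are per transcript length. Gzma made up 71.6 ± 5.76% of the summed FPKM of the 5 granzymes in treated and 74.6 ± 7.80% in untreated CD3-CD8- cells (SD, n = 3 each), and between 65.0% and 69.9% on average in the other 4 groups. Gzmb had group means of 15.7% to 24.4%, and was next in 5 of the 6 groups. In treated CD3+CD8- cells Gzmk averaged 16.4% and Gzmb 15.7%. Gzmk took 9.26 ± 2.23% in treated, against 3.61 ± 2.69% in untreated CD3-CD8- cells, where the lowest treated library (6.98%) just exceeded the highest untreated one (6.64%). Among CD3+CD8- cells Gzmk took 16.4 ± 6.37% in treated and 9.36 ± 6.02% in untreated mice, which overlapped. Among CD3+CD8+ cells it took 10.8 ± 3.08% in treated and 8.90 ± 5.33% in untreated mice, which overlapped as well. Gzmc took at most 1.96% and Gzmm at most 1.73% of any library.

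**Figure D4:**
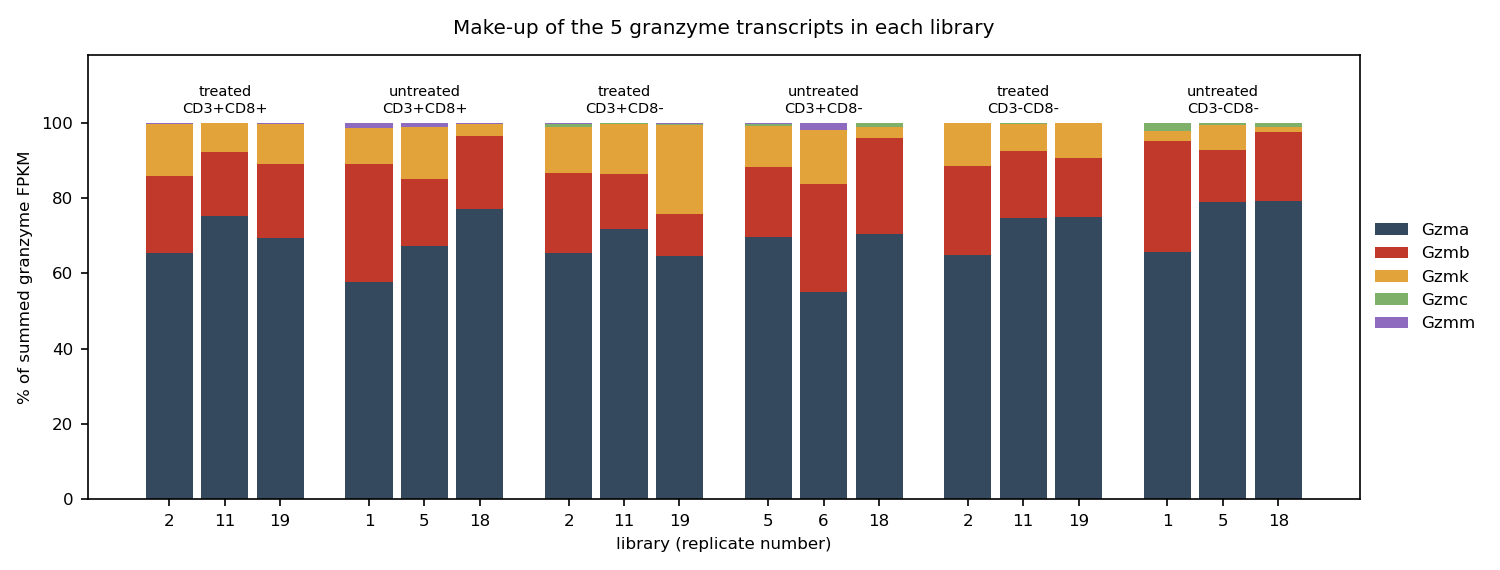
Share of the summed FPKM of Gzma, Gzmb, Gzmk, Gzmm and Gzmc that each takes, in percent, 1 bar per library and treated groups left of untreated groups. Gzma is the largest part of all 18 bars, and in CD3-CD8- cells the Gzmk part is larger with treatment (9.26% in treated and 3.61% in untreated mice on average).

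Per length the 10 transcripts covered a wide range within a group. In treated CD3-CD8- cells Gzma averaged 4184 ± 557 FPKM, Gzmb 1113 ± 279.6 FPKM and Nkg7 949 ± 332 FPKM (SD, n = 3). Srgn averaged 635 ± 64.7 FPKM and Gzmk 550.1 ± 177 FPKM in the same cells. Ctsw (142 ± 72.0 FPKM), Fasl (98.3 ± 40.4 FPKM) and Prf1 (46.95 ± 18.7 FPKM) formed a lower tier, and Gzmc (9.32 ± 6.615 FPKM) and Gzmm (0.5985 ± 0.171 FPKM) came last.

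The fractions differed in granzymes A and B within treated mice. CD3+CD8+ cells had 6.22-fold more Gzma and 7.84-fold more Gzmb than CD3+CD8- cells of treated mice, with log2 fold changes of 2.64 (SE 0.49, edgeR adjusted p = 0.00365) and 2.97 (SE 0.49, edgeR adjusted p = 0.00177). They were 2 of 10 genes called, beside 5.96% of 13181 genes. CD3+CD8- cells had 8.22-fold less Gzma and 10.28-fold less Gzmb than CD3-CD8- cells of treated mice, with log2 fold changes of -3.04 (SE 0.50, edgeR adjusted p = 0.00731) and -3.36 (SE 0.50, edgeR adjusted p = 0.00415). They were again 2 of 10, beside 1.23% of genes. Gzmb was called in all 21 alternatives of both comparisons and Gzma in 20, the exception being library totals without TMM (adjusted p = 0.147 and 0.176). Without the 3 ribosomal-RNA-rich libraries the log2 fold changes of Gzma and Gzmb were 2.30 and 2.81 against CD3+CD8- cells.

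Prf1, Fasl and Gzmk were not called between these fractions in the edgeR fit of 6 groups. All 3 were called when the replicate code, whose meaning the labels do not give, was fitted as a block. Their edgeR adjusted p was then 0.00363, 0.0331 and 0.00984 in CD3+CD8+ against CD3+CD8- cells. It was 0.0176, 0.0279 and 0.0151 in CD3+CD8- against CD3-CD8- cells. The share of all genes called with the block is not given here, so these calls are not shown to be particular to the 3 genes. The values that follow are without the block. Prf1 was at a log2 fold change of 1.66 (SE 0.60, edgeR adjusted p = 0.141; 2.48 and adjusted p = 0.0377 without treated CD3+CD8- replicate 19) and Fasl at 1.01 (SE 0.34, edgeR adjusted p = 0.111) in CD3+CD8+ against CD3+CD8- cells. Gzmk was at 1.75 (SE 0.83, edgeR adjusted p = 0.335). Against CD3-CD8- cells, CD3+CD8- cells were at -1.20 for Fasl (SE 0.34, edgeR adjusted p = 0.0986; -1.51 and adjusted p = 0.0366 without treated CD3-CD8- replicate 11) and at -1.36 for Prf1 (SE 0.59, edgeR adjusted p = 0.317). Of the 9 genes other than Gzmc none was called between CD3+CD8+ and CD3-CD8- cells of treated mice. Log2 fold changes there were -0.40 (SE 0.46) for Gzma, -0.39 (SE 0.45) for Gzmb, -0.20 (SE 0.34) for Fasl and 2.57 (SE 1.02) for Gzmm.

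Gzmc was the 1 gene of the 10 called between CD3+CD8+ and CD3-CD8- cells in the edgeR fit without the block. It was lower in CD3+CD8+ cells of treated mice, beside 4.94% of genes, and of untreated mice, beside 4.57%. Its fitted log2 fold change was -3.62 in treated mice (SE 0.72, edgeR adjusted p = 0.00751). Pooled over 3 libraries, 30 counts in treated CD3+CD8+ cells and 342 in treated CD3-CD8- cells gave a ratio of scaled levels of 0.142 (exact 95% interval 0.0943 to 0.206, counting error only). In untreated mice 3 counts stood against 810, a ratio of 0.0233 (0.00479 to 0.0683), with an edgeR adjusted p of 0.00854.

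In untreated mice the edgeR fit of 6 groups called Gzma and Gzmb in no comparison of fractions. Between CD3+CD8+ and CD3+CD8- cells 0 of the 10 genes were called, beside 1.58% of genes, with log2 fold changes of 0.34 (SE 0.46) for Gzma and -0.13 (SE 0.46) for Gzmb. Between CD3+CD8- and CD3-CD8- cells 0 were called, beside 3.16%, with -1.19 for Gzma (SE 0.47, edgeR adjusted p = 0.212) and -0.56 for Gzmb (SE 0.46, edgeR adjusted p = 0.615). In the edgeR fit 1369 and 2019 genes had an unadjusted p under 0.05 in these comparisons. DESeq2 called 1 of the 10 genes in each, the scarce Gzmc (DESeq2 adjusted p = 0.0409 and 0.0369), and limma voom 0 and 1. The share of all genes called by these tools is not given here, so these calls are not shown to be particular to the 10 genes. The gene called by limma voom was Gzma (-1.58, adjusted p = 0.0161), which also passed with the replicate block (-1.85, edgeR adjusted p = 0.0244). Untreated CD3+CD8- replicate 6 moved both comparisons. Without it CD3+CD8+ cells were at 0.68 for Gzmb against CD3+CD8- cells (edgeR adjusted p = 0.502). CD3+CD8- cells were then at -1.44 for Gzmb against CD3-CD8- cells (edgeR adjusted p = 0.0498), which passed. CD3+CD8+ cells against CD3-CD8- cells were at -0.85 for Gzma (SE 0.46, edgeR adjusted p = 0.281) and -0.69 for Gzmb (SE 0.46, edgeR adjusted p = 0.374). Limma voom called Gzma there, at -1.61 (adjusted p = 0.00321).

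**Figure D5:**
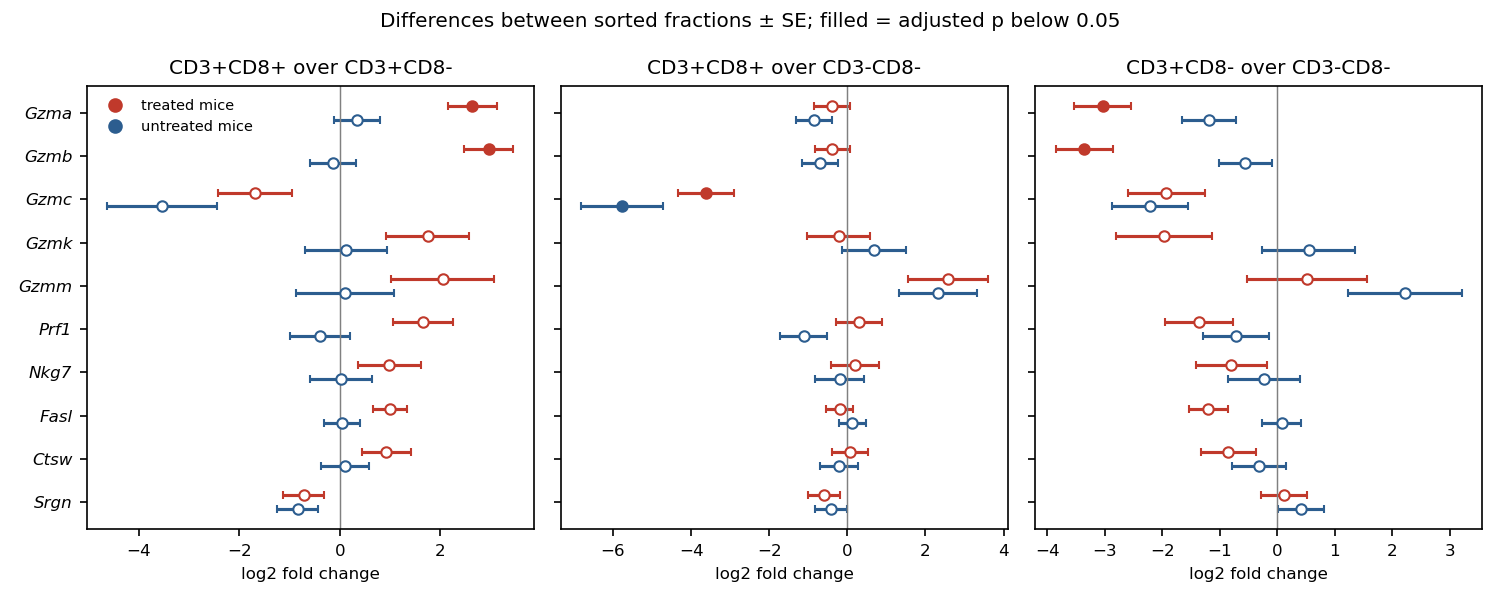
Log2 fold change between sorted fractions for each gene, with its standard error, in treated and untreated mice, from the edgeR fit over 18 libraries; filled points passed an adjusted p below 0.05. Gzma and Gzmb are filled in both comparisons with CD3+CD8- cells of treated mice, and Gzmc in CD3+CD8+ against CD3-CD8- cells of both.

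The difference between fractions in the response to treatment was tested in the same fit. The treatment effect in CD3+CD8+ cells minus that in CD3+CD8- cells was positive for all 10 genes, with a median of 1.74 against 0.02 over all genes, yet 0 of 10 were called, beside 0% of 13181 genes (478 at an unadjusted p under 0.05). The sign turned in at least 1 alternative for Srgn (0.13, SE 0.57, in the main fit), Gzmc, Gzmm, Nkg7 and Ctsw. Nkg7 and Ctsw were at -0.28 and -0.01 without the ribosomal-RNA-rich libraries. Gzma, Gzmb, Gzmk, Prf1 and Fasl stayed positive in all alternatives. DESeq2 called 116 genes, 2 of them of the 10, and limma voom 0. Gzmb came closest, at 3.11 on the log2 scale (SE 0.66, edgeR adjusted p = 0.0943), before Gzma at 2.30 (SE 0.66, edgeR adjusted p = 0.379) and Prf1 at 2.05 (SE 0.84, edgeR adjusted p = 1). Without untreated CD3+CD8- replicate 6 the Gzmb difference was 2.28 (edgeR adjusted p = 0.3) and the Gzmm difference turned to -0.87. Without untreated CD3+CD8+ replicate 5 the Gzmb difference was 3.28 (edgeR adjusted p = 0.0305), which passed. The untreated CD3+CD8+ libraries left in that fit were both rich in ribosomal RNA.

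The treatment effect in CD3+CD8- minus that in CD3-CD8- cells was -2.80 for Gzmb (SE 0.66, edgeR adjusted p = 0.812), -2.52 for Gzmk (SE 1.16, edgeR adjusted p = 0.977) and -1.29 for Fasl (SE 0.49, edgeR adjusted p = 0.977). Without untreated CD3+CD8- replicate 6 the Gzmb value was -1.98 (edgeR adjusted p = 0.804). No gene of the 10 or of the table was called by edgeR (0%, 503 at an unadjusted p under 0.05), while DESeq2 called 19 genes with 1 of the 10, Gzmb, and limma voom 0. Between CD3+CD8+ and CD3-CD8- cells the effects differed by 0.45 for Gzma (SE 0.65, edgeR adjusted p = 0.899), 0.30 for Gzmb (SE 0.64, edgeR adjusted p = 0.937) and -0.33 for Fasl (SE 0.49, edgeR adjusted p = 0.9). Here too edgeR called 0% of genes, with 515 at an unadjusted p under 0.05, DESeq2 called 1 and limma voom 235, none of them of the 10. By edgeR, the treatment effect on these genes was thus not shown to differ between fractions.

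Genes that process, release or restrain the granule contents were counted in CD3-CD8- cells, where treatment calls were made. Of 5 genes of granule processing 1 rose, beside 25.6% called of all genes: Cst7, an inhibitor of cathepsins that activate granzymes, with 169.2 ± 48.0 CPM in treated and 55.9 ± 20.1 CPM in untreated mice (log2 fold change 1.59, SE 0.32, edgeR adjusted p = 0.0151). The median over the 5 was 0.03, against -0.06 over all genes. After GC correction 1 of the 5 was called, beside 526 of all 13781 genes, and the median was -0.31. Of 14 genes of granule exocytosis tested 2 rose and 4 fell, with a median of 0.21, beside 25.6% called of all genes. After GC correction 0 of the 14 were called, beside the same 526 of all 13781 genes, and the median was -0.10. Sytl2, a Rab27 effector that docks granules, rose by 1.33 on the log2 scale (SE 0.29, edgeR adjusted p = 0.0189). Ap3d1, an adaptor subunit for sorting to lysosome-related organelles, fell by 0.79 (SE 0.13, edgeR adjusted p = 0.0108), and Coro1a, an actin regulator, fell by 1.26 (SE 0.28, edgeR adjusted p = 0.02).

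Of 6 serpins of the families that inhibit granule proteases 1 rose, Serpina3g, by 0.71 (SE 0.22, edgeR adjusted p = 0.0485), a share below the 25.6% of all genes, with a median of 0.36 over the list. After GC correction 0 of the 6 were called, beside 526 of all 13781 genes, and the median was -0.14. Serpinb9, the inhibitor of granzyme B, was at 0.28 (SE 0.24, edgeR adjusted p = 0.415). Of 19 genes of death receptor pathways 3 rose and 3 fell, beside 25.6% called of all genes, with a median of 0.11. The list holds Fas and genes downstream of it, and also Tnf, Lta, Tnfsf10, Tnfrsf1a and Tnfrsf10b of other death receptor routes. After GC correction 0 of the 19 were called, beside the same 526 of all 13781 genes. Apaf1, the scaffold of the apoptosome, rose by 0.74 (SE 0.13, edgeR adjusted p = 0.0119). Bax, which permeabilises mitochondria, fell to 14.9 ± 1.53 CPM in treated mice, against 39.1 ± 10.8 CPM in untreated mice (log2 fold change -1.42, SE 0.21, edgeR adjusted p = 0.00915). Fas itself, the receptor, was at 0.92 (SE 0.29, edgeR adjusted p = 0.054).

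Of 12 transcription factors of effector lymphocytes 2 rose and none fell in these cells, a share below the 25.6% of all genes, with a median of 0.27. After GC correction 2 were called, beside 526 of all 13781 genes. The genes that rose are named next. They were Prdm1, which encodes Blimp-1 (log2 fold change 1.65, SE 0.25, edgeR adjusted p = 0.00915), and Eomes (1.38, SE 0.33, edgeR adjusted p = 0.0229), both known regulators of cytotoxic genes. Tbx21, which encodes T-bet, was at -0.17 (SE 0.23, edgeR adjusted p = 0.622). Of 7 factors of resting or naive lymphocytes 6 fell, with a median of -1.13, and 4 of the 7 were called after GC correction, beside the same 526 of all genes. Tcf7 stood at 28.8 ± 2.81 CPM in treated and 69.2 ± 15.6 CPM in untreated mice (log2 fold change -1.28, SE 0.18, edgeR adjusted p = 0.00905), Klf2 fell by 1.13 (SE 0.18, edgeR adjusted p = 0.00972) and Satb1 by 1.02 (SE 0.17, edgeR adjusted p = 0.0104). The B-cell markers, which fell in the same libraries, are given above, and their part in the fall of these factors was not tested.

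None of these lists had a called gene in CD3+CD8+ cells, beside 0% of all 10654 genes tested there. The medians were 0.61 for the effector regulators and -0.80 for the 6 resting factors tested, against -0.03 over all genes, with Prdm1 at 1.68, Eomes at 1.38, Satb1 at -1.06 and Lef1 at -0.86. Between fractions of treated mice, CD3+CD8+ cells had less Serpinb1a than CD3+CD8- cells (log2 fold change -4.17, SE 0.85, edgeR adjusted p = 0.00665). CD3+CD8+ cells also had less Serpinb9b (-3.53, SE 0.81, edgeR adjusted p = 0.014) and Tnf (-2.30, SE 0.57, edgeR adjusted p = 0.0224). No other gene in the lists was called, beside 5.96% of 13181 genes. Serpinb1a, an inhibitor known from neutrophils, averaged 28.8 CPM in untreated CD3+CD8- and 139.3 CPM in untreated CD3-CD8- cells. The part of neutrophil transcripts in its values was not tested. Between CD3+CD8+ and CD3-CD8- cells of treated mice 4.94% of 13181 genes were called. Tcf7 and Lef1 were higher in CD3+CD8+ than in CD3-CD8- cells of treated mice (2.95, SE 0.39, edgeR adjusted p = 0.00119, and 3.18, SE 0.45, edgeR adjusted p = 0.00155). Serpinb1a, Serpinb9b, Ctsh, a protease that activates granzyme B, and Vamp8, a fusion protein of granules, were lower in CD3+CD8+ than in CD3-CD8- cells of treated mice. Their log2 fold changes were -4.79, -3.90, -1.72 and -1.06 in that order (SE 0.87, 0.81, 0.47 and 0.27; edgeR adjusted p = 0.00488, 0.00965, 0.0428 and 0.0307).

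Across all 18 libraries the pattern of each gene was set against that of 7542 others, by the root mean square difference of log2 CPM after centring each gene on its own mean. Libraries share depth and composition, so this is a description. Gzma and Gzmb were each other's nearest gene, at 0.48, where a flat profile would be 1.34 away from Gzma and 1.29 from Gzmb. Next came Cd200r4 (0.67) and Cd7 (0.71) for Gzma, and Cd160 (0.62) and Cd7 (0.64) for Gzmb. Gzmk was nearest to the chemokine gene Ccl5 (0.52), then Ildr1 (0.62) and the checkpoint receptor gene Pdcd1 (0.79). Fasl was nearest to Lgalsl (0.36), Tnfsf10, the gene of the death ligand TRAIL (0.37), and Gimap7 (0.37). Prf1 was nearest to Hmga1 (0.42), Lrrk1 (0.49) and Padi2 (0.52), none of them a gene of the set.

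Nkg7 was nearest to Rpa2 (0.25), Tapbpl (0.39) and Sh2d2a (0.40), and Ctsw to Tapbpl (0.27), Il21r (0.29) and Pla2g16 (0.30). Srgn, whose flat profile was 0.51 away, was nearest to Sdcbp (0.25), Ints12 (0.27) and Atp6v1g1 (0.28). Gzmm and Gzmc had no close match: their nearest genes were Adgrg5 at 0.92, followed by Racgap1 (0.97) and Pim2 (1.03), and Lat2 at 1.11, followed by Aif1 (1.29) and Naaa (1.32).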

How the data were processed

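Libraries of total RNA from sorted liver cells were made with a low-input kit and TruSeq v2, per the labels' protocols. The authors deposited whole-number counts per gene, of which 18 library columns were used and 22 were not, and FPKM per gene, which gave symbols, loci and the levels compared between genes. Tools listed, with no role, in the submitters' processing notes are HTSeq 0.13.5, DESeq2 3.20, Cufflinks 2.2.1 and Trim Galore 0.6.7. Neither aligner nor genome build is stated there; 47864 of 48440 identifiers were found in GENCODE vM21 (GRCm38), 90.48% with the same start.

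Counts were fitted with edgeR 4.0.16 in R 4.3.3 (filterByExpr, TMM, quasi-likelihood F-test, two-sided, Benjamini-Hochberg over all genes), per fraction (6 libraries) for treatment and over 18 libraries in 6 groups between fractions; the fits were tested on simulated data. Alternatives used DESeq2 1.42.0 and limma 3.58.1, other scalings, filters, covariates and left-out libraries; those without the 3 ribosomal-RNA-rich libraries or with the wider list of ribosomal RNA loci were chosen after seeing the data. CPM and ratios use the TMM factors of all 18 libraries, ratios with a prior count of 2, and the FPKM alternative tests log2(FPKM + 1). Total counts per library limit low genes such as Gzmm and Gzmc. Members and lists were chosen with earlier results of these data known. Named pathway genes are the 3 called genes of smallest p in a list and comparison, or 2 where none is called, except Serpinb9, Fas and Tbx21, which were chosen after their values were seen; named similar genes are the 3 nearest. The result for 1 gene that this rule names is not reported here. Motifs were chosen as those of factors known to act on cytotoxic genes.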

Additional observations from a re-analysis of the deposited data

How the results depend on the processing

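Over the 11 values called for these genes, 225 alternatives left 197 called in the same direction, 28 not called and 0 reversed. Of 2337 values called in neither analysis the sign differed in 179, and 83 values passed that had not. The number of the 10 genes called was as follows under settings that moved it. For treatment in CD3+CD8+ cells (0), no filter and DESeq2 each gave 4 and limma voom 5, and leaving out 1 library gave 0 to 3 (3 without untreated replicate 5). In CD3+CD8- cells (0) no filter gave 1. In CD3-CD8- cells (5) GC correction gave 3, all 18 libraries in 1 fit 1, log2(FPKM + 1) 0, no filter and DESeq2 each 6, and library totals alone, the stricter filter and the lane covariate each 4, and leaving out 1 library gave 1 to 4 (3 without untreated replicate 1, 2 without untreated replicate 5, 1 without treated replicate 2). In treated mice, CD3+CD8+ against CD3+CD8- cells (2) gave 1 with library totals alone, 5 with no filter, 3 with limma voom or GC correction and 2 to 3 without 1 library. CD3+CD8+ against CD3-CD8- cells (1) gave 2 with no filter, limma voom or only the groups compared. CD3+CD8- against CD3-CD8- cells (2) gave 1 with library totals alone, 6 with no filter, 3 with DESeq2 or limma voom and 2 to 3 without 1 library. In untreated mice, CD3+CD8+ against CD3+CD8- cells (0) gave 1 with library totals alone, no filter or DESeq2. CD3+CD8+ against CD3-CD8- cells (1) gave 3 with no filter or limma voom. CD3+CD8- against CD3-CD8- cells (0) gave 2 with no filter and 1 with DESeq2, limma voom or without untreated CD3+CD8- replicate 6. The treatment effect in CD3+CD8+ minus CD3+CD8- cells (0) gave 3 with no filter, 2 with DESeq2 and 1 without untreated CD3+CD8+ replicate 5, and that in CD3+CD8- minus CD3-CD8- cells (0) gave 2 with no filter and 1 with DESeq2. The causes were not tested. Libraries with the same code correlated over 0.1 in 14 of 16 pairs (lowest -0.041, median 0.348), against 6 of 38 other pairs (median -0.132), a hint from the data that a code marks a shared source. The fit without the block was kept because the labels do not say so and 2 of the 16 pairs were not over 0.1. With the replicate block, with or without GC correction, the comparisons of fractions in the order above gave 6, 2 and 5 calls in treated and 1, 3 and 2 in untreated mice. In treated mice the block alone added Prf1, Fasl, Gzmk and Gzmm in the first (adjusted p = 0.00363, 0.0331, 0.00984 and 0.031), Gzmm in the second (0.0102), and Prf1, Fasl and Gzmk in the third (0.0176, 0.0279 and 0.0151). In untreated mice it added Gzmm in the first (0.0348), Gzmm and Prf1 in the second (0.0486 and 0.0314), and Gzma and Prf1 in the third (0.0244 and 0.026). Calls over all genes are not set beside these counts between fractions. Whether more calls are particular to the 10 genes is therefore not shown by them. No paired analysis was possible because treated and untreated libraries share no codes, for treatment itself. Over all genes, treatment in CD3-CD8- cells gave 3522 calls (1407 higher, 2115 lower), against 2045 (351 higher, 1694 lower) with library totals alone, 526 with GC correction, 76 with all libraries in 1 fit, 251 with log2(FPKM + 1), 5479 with DESeq2, 6399 with limma voom, and 239 (without untreated replicate 5) to 3183 without 1 library. In CD3+CD8+ cells (0) it gave 380 with no filter, 99 with DESeq2, 197 with limma voom and 180 without untreated replicate 5. That last fit had only ribosomal-RNA-rich untreated libraries. Library totals alone moved the median of all genes to 1.17 in CD3+CD8+, -0.53 in CD3+CD8- and -0.17 in CD3-CD8- cells, relative to which Gzma stood at 1.84 in CD3+CD8+ and 1.79 in CD3-CD8- cells. Low counts limit Gzmc and Gzmm.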
